A study of Homo sapiens with 16 samples.

Results

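The 10 genes described here are regulators and targets of the Hippo pathway, namely the kinases LATS1 and LATS2, the coactivators YAP1 and WWTR1, their DNA-binding partner TEAD1 and the target genes CCN1, CCN2, ANKRD1, AMOTL2 and AXL. They were taken by platform symbol from 18239 genes with a probe set of a single gene symbol. The set was chosen with earlier results of these data known, so its counts beside all genes are no independent evidence. They had 31 of the 45259 such probe sets, between 1 for ANKRD1 and 8 for YAP1.

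The Hippo pathway restrains a pair of transcriptional coactivators, YAP1 and WWTR1, which is also called TAZ. The kinases STK3 and STK4 activate the kinases LATS1 and LATS2, which phosphorylate both coactivators and hold them out of the nucleus. When LATS activity is low, as in spread cells under mechanical tension, YAP1 and WWTR1 enter the nucleus and bind TEAD1 and its relatives at their target genes, among them CCN1, CCN2, ANKRD1, AMOTL2 and AXL. In neuroblastoma, YAP1 activity is known mainly from cells of the mesenchymal, substrate-adherent state, and SK-N-SH is a neuroblastoma line known for a mixture of such cells with adrenergic, neuroblast-like ones.

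The 16 arrays, Human Genome U219, measured total RNA of SK-N-SH cells in 4 groups of 4, namely untreated cells and cells given risperidone, an antipsychotic that blocks dopamine and serotonin receptors, at 10 µM for 6, 24 or 48 h. The arrays called untreated received the DMSO vehicle according to the treatment protocol, at most 1% of the volume, as the drug was dissolved in it. No harvest time is given for them, and the same 4 arrays serve as the control of every exposure. All cells had been grown for 48 h to near confluence, and all values are of 1 cell line. The arrays of a group are labelled biological replicates, and how the cultures were separated is not described. The p-values therefore rest on the scatter of these arrays, which may be technical.

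Values are log2 RMA values, on which 1 unit is a doubling, and each gene is given at its brightest probe set unless stated. Array medians lay between 4.5 and 4.62, and the lowest value of the table was 2.57. Genes were tested with limma over 13680 genes, differences are followed by ± their standard error, and a call is an adjusted p under 0.05 (Benjamini-Hochberg). Untreated replicate 1 held the lowest untreated value for 47.4% of the tested genes and for 5 of these 10.

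Both coactivators, all 5 targets and LATS2 were lower in exposed cells at every time, with log2 differences of -5.62 to -0.98 at 6 h. In bulk RNA such as this, fewer cells of a type and less RNA per cell cannot be told apart. At 6 h 9 of the 10 genes were lower and 0 higher, where 16.7% of all tested genes were called lower and 36.6% higher. At 24 h 10 were lower and 0 higher, where 16.9% of tested genes were lower and 35.3% higher. The 24 h calls of LATS1 (-0.16) and TEAD1 (-0.25) were of small differences and were lost in some alternatives. At 48 h 9 were lower and 1, LATS1, was higher, where 21% of tested genes were lower and 36% higher. The median difference of the 10 genes was -3.33 at 6 h, -2.79 at 24 h and -3.03 at 48 h, and that of all tested genes was 0.09, 0.09 and 0.08. In 8 of the 10 genes all 6 h arrays lay below all untreated arrays, as in 14.8% of tested genes. The number was 9 at 24 h, beside 15.2% of tested genes, and 8 at 48 h, beside 17.8%. In 1, LATS1, all 48 h arrays lay above all untreated arrays, as in 30% of tested genes. Of the 31 probe sets 4 were too dim to be tested, 1 each of AMOTL2, LATS1, LATS2 and TEAD1. Of the other 27, 23 were lower and 1 higher at 6 h, where 14.9% of all tested probe sets were lower and 29.1% higher. At 24 h 22 were lower and 0 higher (15.6% and 28.4% of all), and at 48 h 23 were lower and 3 higher (19.2% and 30.9% of all). Apart from LATS1 and TEAD1, the 8 genes kept direction and call against untreated cells in every alternative in which they were tested.

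**Figure D1:**
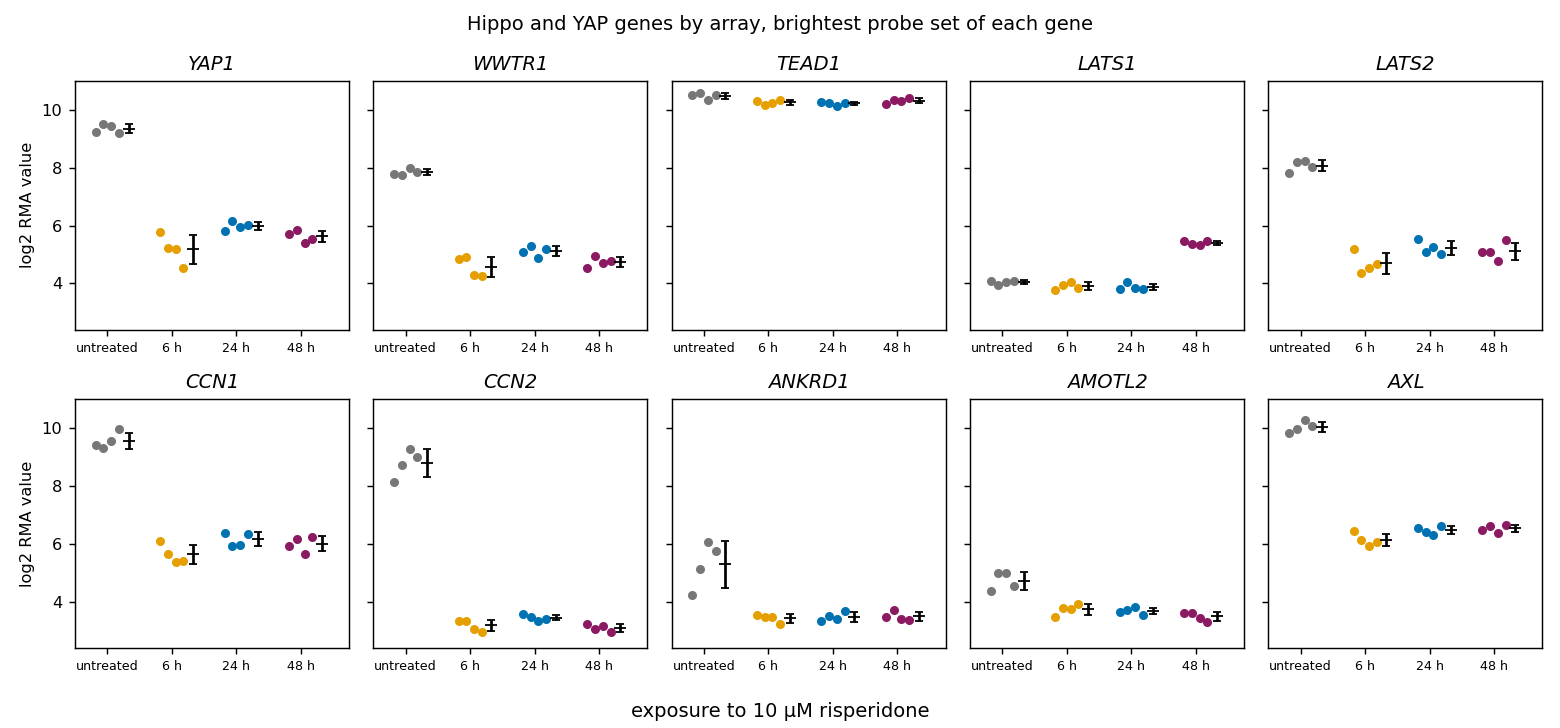
Log2 RMA value of each of the 10 genes at its brightest probe set (vertical axis) in untreated cells and after 6, 24 and 48 h of 10 µM risperidone. Points are the 4 arrays of a group and black marks the mean with its SD. In 8 genes every treated array lies below every untreated array, TEAD1 stays between 10.15 and 10.58, and LATS1 stands apart at 48 h.

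CCN2, a secreted matricellular protein and the standard readout of YAP activity, had the largest difference of the set. It measured 8.15, 8.74, 9.28 and 8.99 in untreated cells. The treated arrays read 3.34, 3.34, 3.06 and 2.96 at 6 h, 3.56, 3.46, 3.34 and 3.40 at 24 h, and 3.23, 3.05, 3.15 and 2.93 at 48 h. The highest treated array was thus far below the lowest untreated one, and all treated arrays lay near the bottom of the scale. CCN2 fell by 5.62 ± 0.17 at 6 h (limma adjusted p = 5.53e-14), with differences of -5.35 and -5.70 at 24 and 48 h (adjusted p = 1.41e-13 and 4.47e-14). At each time it ranked 1 of 13680 genes by size of fall. The 6 h difference is a 49.0-fold lower value, which depends on the bottom of the scale and is limited by it. The other probe sets of CCN2 fell too, with differences of -4.33 and -2.00 at 6 h.

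The promoter of CCN2 is shown because the gene had the largest fall and is bound by TEAD proteins in other cell types, and that of ANKRD1 because, of the other 7 genes searched, it alone held more than 1 copy of the TEAD motif in a window. Both are the 250 bases before the transcription start on the gene's strand, from RefSeq on GRCh38.p14, at chr6:131951373-131951622 (minus strand) for CCN2 and chr10:90921088-90921337 (minus strand) for ANKRD1. Capitals mark the motif GGAATG, which was searched on both strands (CATTCC on the other), with no overlap among the matches.
CCN2: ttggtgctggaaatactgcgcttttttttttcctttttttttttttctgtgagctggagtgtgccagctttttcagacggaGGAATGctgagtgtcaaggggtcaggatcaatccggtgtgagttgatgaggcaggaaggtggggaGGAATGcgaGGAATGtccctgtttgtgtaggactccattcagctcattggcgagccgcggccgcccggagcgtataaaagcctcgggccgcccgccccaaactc
ANKRD1: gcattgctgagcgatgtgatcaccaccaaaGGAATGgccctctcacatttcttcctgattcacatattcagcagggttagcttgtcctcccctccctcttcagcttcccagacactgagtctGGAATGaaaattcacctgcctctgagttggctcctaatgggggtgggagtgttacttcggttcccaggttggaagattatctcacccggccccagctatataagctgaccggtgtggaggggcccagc

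The 3 matches of CCN2 start at -169, -104 and -95 relative to the transcription start, and the 2 of ANKRD1 at -220 and -128. Of 35116 promoter windows of the same length, 11.9% held at least 1 match, 0.94% at least 2 and 0.0826% at least 3. Windows were at hand for 8 of the 10 genes, and 5 of their 12 windows held a match, in CCN2, ANKRD1, AMOTL2, AXL and YAP1. No window of LATS1, LATS2 or WWTR1 held a match, nor did the other window of AMOTL2 or of AXL. Whether matches go with the size of the falls was not tested. A match describes the letters of the window and not a bound site, and CCN1 and TEAD1 were not searched.

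CCN1, the close relative of CCN2 and likewise a secreted matricellular protein, measured 9.42, 9.31, 9.56 and 9.96 in untreated cells. It read 6.09, 5.64, 5.38 and 5.41 at 6 h, 6.38, 5.92, 5.96 and 6.33 at 24 h, and 5.92, 6.17, 5.66 and 6.24 at 48 h. Treated and untreated arrays did not overlap, and treated values stayed well above the bottom of the scale. CCN1 fell by 3.93 ± 0.17 at 6 h (limma adjusted p = 5.65e-12), with differences of -3.42 and -3.57 at 24 and 48 h, or 15.3-fold, 10.7-fold and 11.8-fold lower values. Its other probe set differed by -3.74, -3.24 and -3.34 at these times.

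AXL, a receptor tyrosine kinase of the TAM family, read 9.83, 9.96, 10.27 and 10.09 in untreated cells. Treated arrays had 6.44, 6.12, 5.93 and 6.05 at 6 h, 6.53, 6.42, 6.31 and 6.63 at 24 h, and 6.46, 6.61, 6.38 and 6.66 at 48 h. All treated arrays were lower than all untreated ones, and the spread within each group was small. The fall was 3.90 ± 0.11 at 6 h on the log2 scale (limma adjusted p = 3.08e-14), the difference was -3.57 at 24 h and -3.51 at 48 h, and the dimmer probe set of AXL differed by -1.13, -0.93 and -1.03.

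ANKRD1, a muscle ankyrin repeat protein of nucleus and sarcomere, had the widest spread among untreated arrays, with 4.23, 5.13, 6.06 and 5.74. It had 3.54, 3.47, 3.45 and 3.21 at 6 h, 3.31, 3.51, 3.38 and 3.68 at 24 h, and 3.47, 3.70, 3.39 and 3.37 at 48 h. The treated arrays were alike and near the bottom of the scale, and untreated replicate 1 came nearest to them without overlap. ANKRD1 fell by 1.87 ± 0.26 at 6 h, with differences of -1.82 and -1.81 at the later times (limma adjusted p = 1.12e-05, 1.52e-05 and 1.2e-05).

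AMOTL2, an angiomotin that binds YAP1 and holds it back as well as being its target, lay below 5 in every array. Untreated arrays had 4.38, 4.98, 4.97 and 4.52, and treated arrays 3.48, 3.77, 3.75 and 3.92 at 6 h, 3.63, 3.71, 3.80 and 3.54 at 24 h, and 3.62, 3.61, 3.44 and 3.28 at 48 h. All treated arrays lay below all untreated arrays. It fell by 0.98 ± 0.13 at 6 h, with differences of -1.04 and -1.23 at the later times (limma adjusted p = 5.83e-06, 2.92e-06 and 3.03e-07). At its second probe set the difference was -0.19 at 6 h, -0.17 at 24 h and -0.21 at 48 h, called at 6 and 48 h but not at 24 h (adjusted p = 0.084), and the third was too dim to be tested.

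YAP1, the coactivator itself, fell at every one of its 8 probe sets. The brightest had 9.25, 9.52, 9.44 and 9.21 in untreated cells, 5.76, 5.23, 5.20 and 4.54 at 6 h, 5.81, 6.16, 5.94 and 6.01 at 24 h, and 5.72, 5.85, 5.39 and 5.53 at 48 h. No treated array came near the untreated ones, and the 6 h arrays spread more than the others. YAP1 fell by 4.17 ± 0.18 at 6 h (limma adjusted p = 3.8e-12), with differences of -3.38 and -3.73 at 24 and 48 h, or 18-fold, 10.4-fold and 13.3-fold lower values. Over the 8 probe sets the 6 h difference ran from -4.17 to -0.82, and the smallest was at a probe set that averaged 4.65 in untreated cells.

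WWTR1, the paralogue of YAP1, read 7.78, 7.74, 7.99 and 7.86 in untreated cells. It had 4.83, 4.92, 4.28 and 4.24 at 6 h, 5.07, 5.28, 4.88 and 5.19 at 24 h, and 4.54, 4.94, 4.69 and 4.78 at 48 h. Here too each treated array lay below each untreated one. WWTR1 fell by 3.28 ± 0.14 at 6 h, with differences of -2.74 and -3.11 at the later times (limma adjusted p = 3.41e-12, 3.71e-11 and 5.43e-12), and its other 2 probe sets fell too, with -3.06 and -0.64 at 6 h.

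TEAD1, the DNA-binding partner, stood at nearly the same value in all groups. Its brightest probe set had 10.52, 10.58, 10.33 and 10.50 in untreated cells, 10.31, 10.17, 10.23 and 10.34 at 6 h, 10.28, 10.24, 10.15 and 10.25 at 24 h, and 10.21, 10.33, 10.32 and 10.42 at 48 h. Untreated and treated arrays overlapped at 6 and 48 h and not at 24 h. The differences were called but small, -0.22 ± 0.06 at 6 h, -0.25 at 24 h and -0.16 at 48 h (limma adjusted p = 0.0056, 0.002 and 0.029), and no more than 1.19-fold. At its other tested probe set TEAD1 was higher by 0.19 at 6 h and by 0.22 at 48 h (adjusted p = 0.022 and 0.0093), so the probe sets disagreed in sign. With the mean of its probe sets no TEAD1 call remained, the differences being -0.01, -0.08 and -0.02 at 6, 24 and 48 h, and the 48 h call was lost with only the 8 arrays compared or without any 1 of 5 arrays (untreated replicates 1, 2 and 4 and 48 h replicates 1 and 3).

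**Figure D2:**
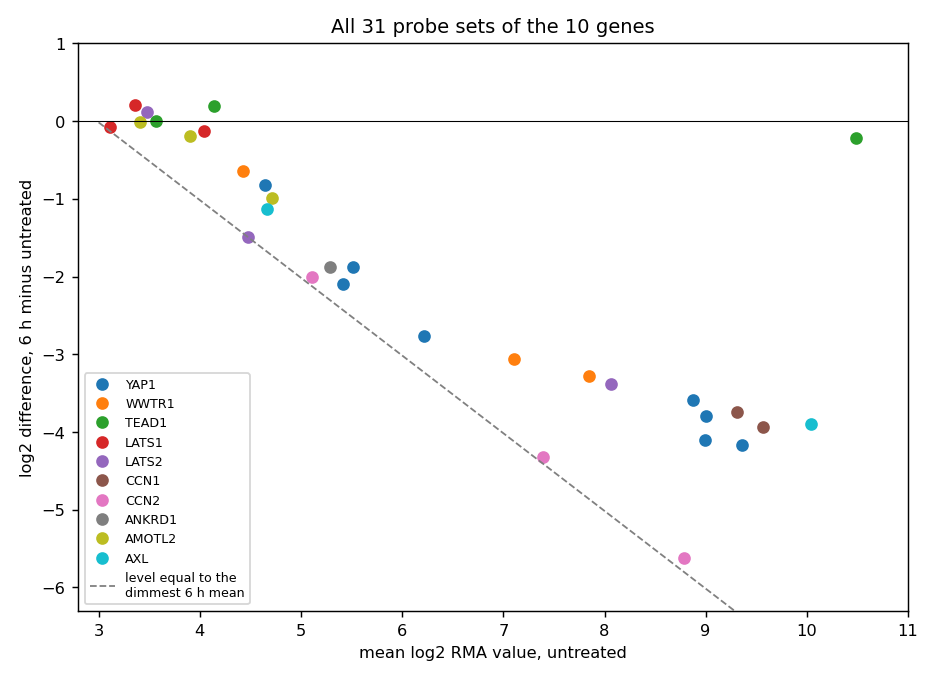
Mean log2 RMA value in untreated cells (horizontal axis) against the log2 difference of 6 h minus untreated (vertical axis) for all 31 probe sets, coloured by gene. The dashed line marks where the 6 h mean would equal 2.98, the lowest 6 h mean among them. The probe sets with an untreated mean under 5 lie between -1.49 and 0.21, the 3 probe sets of CCN2 lie between -5.62 and -2.00, and the brightest TEAD1 probe set lies apart near 0.

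The LATS kinases act on both coactivators. LATS2, which is also a YAP target, read 7.82, 8.20, 8.24 and 8.01 in untreated cells, 5.20, 4.35, 4.52 and 4.68 at 6 h, 5.54, 5.10, 5.26 and 5.01 at 24 h, and 5.07, 5.10, 4.78 and 5.49 at 48 h. All treated arrays were lower than all untreated ones. LATS2 fell by 3.38 ± 0.17 at 6 h, with differences of -2.84 and -2.96 at the later times (limma adjusted p = 3.51e-11, 3.97e-10 and 1.73e-10). Of its other probe sets, 1 was too dim to be tested, with a difference of -1.49 at 6 h, and 1 stood at 3.48 in untreated cells and differed by 0.12 at 6 h (adjusted p = 0.29).

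LATS1 was low in untreated cells and at 6 and 24 h and higher at 48 h. Its brightest probe set had 4.08, 3.94, 4.06 and 4.07 in untreated cells, 3.77, 3.95, 4.06 and 3.84 at 6 h, 3.81, 4.03, 3.85 and 3.81 at 24 h, and 5.45, 5.36, 5.34 and 5.46 at 48 h. The 48 h arrays lay together above all others. At 48 h LATS1 was higher by 1.37 ± 0.07 than in untreated cells (limma adjusted p = 1.41e-11), or 2.58-fold, which ranked 78 of 13680 from the largest rise. The difference at 6 h was -0.13 (adjusted p = 0.1), and the call at 24 h, -0.16 (adjusted p = 0.047), was lost in 11 of 12 other settings and without any 1 of 11 of the 16 arrays (untreated 1, 3 and 4, 6 h 2 and 4, 24 h 1, 3 and 4, and 48 h 1, 2 and 3). Of the other LATS1 probe sets, the second was higher at 48 h by 0.33 (adjusted p = 0.015), and the third, too dim to be tested, differed by -0.06.

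**Figure D3:**
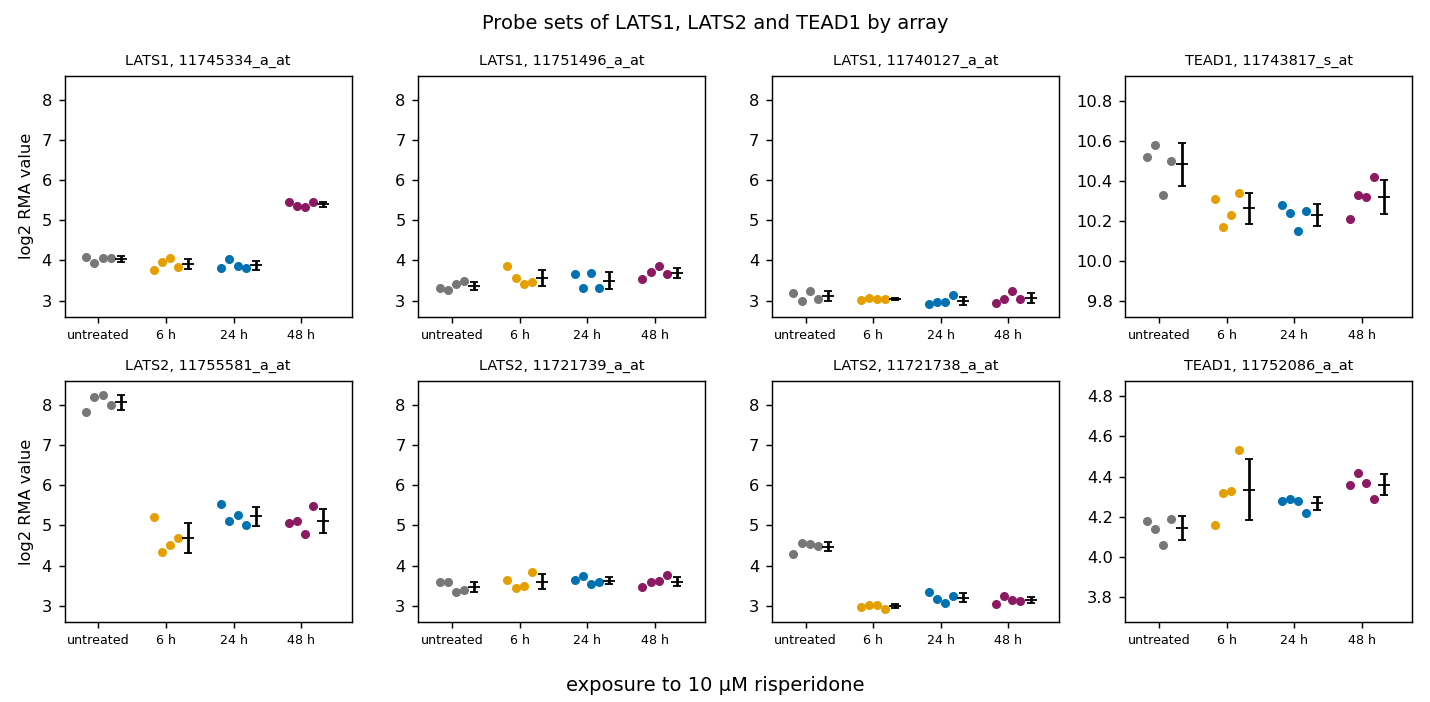
Log2 RMA values (vertical axis) of the 3 probe sets of LATS1 and of LATS2 and of 2 of TEAD1 in untreated cells and after 6, 24 and 48 h of risperidone, with the 4 arrays of a group as points and the mean with SD in black. The 2 TEAD1 panels have a narrower range of 1.2 units. The 48 h arrays of the brightest LATS1 probe set lie between 5.34 and 5.46, those of the second are higher by 0.33 on average than in untreated cells, and the brightest LATS2 probe set is lower in all treated groups.

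Between exposure times few of the 10 genes differed by the test. From 6 to 24 h 1 of the 10 genes was called, YAP1, where 1.55% of tested genes were called higher. YAP1 was higher at 24 h than at 6 h by 0.80 ± 0.18, with all 24 h arrays above all 6 h arrays, as in 6.25% of tested genes (limma adjusted p = 0.023). The call was lost with only the 8 arrays compared (adjusted p = 0.082) and when any 1 of 5 arrays was left out, namely replicate 2 or 3 of the 6 h group or replicate 2, 3 or 4 of the 24 h group (adjusted p between 0.051 and 0.083). Among the 8 YAP1 probe sets 2 were called higher over this step, and the 8 differences ran from 0.025 to 0.80. LATS2, WWTR1 and CCN1 differed by 0.54, 0.54 and 0.52 over the same step without a call (adjusted p = 0.14, 0.051 and 0.16). WWTR1 was called in 7 of 12 other settings. Replicate 1 of the 6 h group held the highest 6 h value in 6 of the 10 genes, and without it 5 genes were called, CCN1, AXL, LATS2, YAP1 and WWTR1, while 308 of all 13680 genes were called, against 329 with all arrays.

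From 24 to 48 h the single call was LATS1, higher by 1.53 ± 0.07 (limma adjusted p = 2.15e-10), where 13.5% of tested genes were called higher. All its 48 h arrays lay above its 24 h arrays, as in 14.3% of tested genes. The second LATS1 probe set differed by 0.19 from 24 to 48 h and by 0.12 from 6 to 48 h. Neither difference was called (limma adjusted p = 0.21 and 0.43). The third, too dim to be tested, differed by 0.06 and 0.015. WWTR1 and YAP1 differed by -0.37 and -0.36 (adjusted p = 0.057 and 0.15), and CCN2 by -0.35 (adjusted p = 0.13) with all 48 h arrays below all 24 h arrays, as in 16.1% of tested genes. From 6 to 48 h LATS1 was higher by 1.5 ± 0.07 and AXL by 0.39 ± 0.11 (limma adjusted p = 1.93e-10 and 0.011), where 16.7% of tested genes were called higher. The AXL groups overlapped, and the AXL call was lost in 2 of 13 other settings. At the other AXL probe set the difference was 0.10 without a call (limma adjusted p = 0.54). In 9 of the 10 genes the untreated mean was the highest, and in LATS1 the 48 h mean was. Among the 3 treated groups no call separated neighbours in the order of means for 9 of the 10 genes. The exception was LATS1, and the calls of YAP1 and AXL were between the lowest and the highest treated mean.

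**Figure D4:**
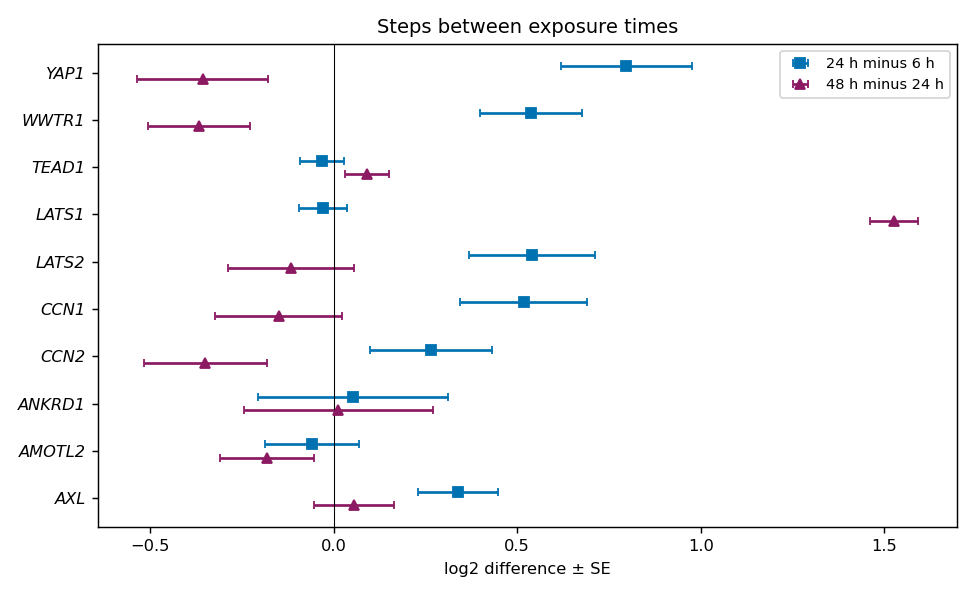
Log2 difference of 24 h minus 6 h (squares) and of 48 h minus 24 h (triangles) for the 10 genes, with bars of 1 standard error from limma. YAP1 is shifted up in the first step by 0.80 and LATS1 in the second by 1.53.

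The remaining parts of the pathway were read from gene lists. Of 22 tested Hippo kinases and adaptors, 11 fell and 3 rose at 6 h, 12 fell and 2 rose at 24 h, and 14 fell and 1 rose at 48 h, with medians of -0.19, -0.19 and -0.35. Over all tested genes 16.7%, 16.9% and 21% were lower and 36.6%, 35.3% and 36% higher at these times, with medians of 0.09, 0.09 and 0.08. The giant cadherins FAT1 and FAT4 fell at 6 h, with differences of -3.37 ± 0.15 and -2.16 ± 0.09. So did the LIM protein AJUBA (-2.09 ± 0.12), the FERM protein FRMD6 (-1.71 ± 0.06) and WWC2, a scaffold related to KIBRA (-1.45 ± 0.10). Of the upstream kinases, STK3 fell at 6, 24 and 48 h (-0.57, -0.65 and -0.51), while STK4 fell at 6 and 24 h (-0.22 and -0.20) and differed by -0.13 at 48 h (limma adjusted p = 0.105). Among the 5 other tested STK4 probe sets 2, 4 and 3 were lower at 6, 24 and 48 h. Among the 3 of STK3 the numbers were 3, 3 and 2. TAOK1, which can activate STK3 and STK4 and is named here after its values were seen, differed by -0.02 at 6 h (adjusted p = 0.885) and fell at 24 and 48 h (-0.80 and -0.82, adjusted p = 1.5e-07 and 7.77e-08). TAOK2, likewise, rose by 0.27 at 6 h and by 0.24 at 24 h (adjusted p = 0.024 and 0.0389) and differed by -0.03 at 48 h (adjusted p = 0.804). RASSF1, also named after its values were seen, was the only gene of this list higher at each time. It rose by 0.60, 0.41 and 0.62 (limma adjusted p = 3.72e-06, 0.00022 and 1.74e-06). Other probe sets of TAOK1, TAOK2 and RASSF1 are not described here. NF2, the membrane scaffold merlin, fell at each time (-0.48, -0.56 and -0.76), though its other 5 tested probe sets lay between -0.27 and 0.08 at 6 h and 0 of them was called at 48 h. MOB1A, the LATS cofactor, fell likewise (-0.37, -0.41 and -0.71), and its other 4 tested probe sets lay between -1.75 and -0.18 at 24 h and between -2.11 and -0.49 at 48 h. The other tested probe set of FRMD6 fell by 0.47 at 6 h.

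Among 7 tested TEAD and VGLL genes, 2 fell and 1 rose at 6 h, 2 fell and 2 rose at 24 h, and 1 fell and 0 rose at 48 h, with medians of -0.01, -0.02 and 0.06. Beside the shares over all genes given above, counts of this size say little about the list. TEAD2 averaged 9.34 ± 0.16 in untreated cells, 7.83 ± 0.08 at 6 h, 7.71 ± 0.12 at 24 h and 7.08 ± 0.09 at 48 h (SD, n = 4). The differences were -1.51 ± 0.08, -1.63 and -2.25 (limma adjusted p = 3.42e-11, 1.52e-11 and 2e-13), beside -0.22, -0.25 and -0.16 for TEAD1, with no test between these genes, and the other 3 tested probe sets of TEAD2 lay between -1.16 and -0.15 at 6 h. TEAD4 fell at 6 and 24 h (-0.25 and -0.20) and differed by 0.07 at 48 h (adjusted p = 0.4), where cyclic loess turned the sign. TEAD3, which averaged 3.97 in untreated cells, was called only at 24 h, higher by 0.26 (adjusted p = 0.025), and cyclic loess turned the sign of its 6 h difference of 0.03. VGLL4, which competes with YAP1 for TEAD proteins, rose by 0.34 ± 0.06 at 6 h and by 0.29 at 24 h and differed by 0.09 at 48 h (adjusted p = 0.18). Among the other 2 tested VGLL4 probe sets 1 was called higher at 6 h, and 0 were called at 24 and 48 h. VGLL1 and VGLL3 averaged 3.67 and 3.71 in untreated cells, near the lowest mean of 3.65 that was tested, and had no call.

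Of 17 tested further YAP targets, 13 fell and 1 rose at 6 h, and 14 fell and 1 rose at 24 h and at 48 h, with medians of -1.45, -0.93 and -1.10. Largest at 6 h were the differences of the matrix protein gene THBS1 (-4.14 ± 0.15), the crosslinking enzyme gene TGM2 (-4.12 ± 0.16) and the ectonucleotidase gene NT5E (-3.99 ± 0.11). Those of CRIM1 (-3.97 ± 0.16), the membrane repair gene MYOF (-3.86 ± 0.13) and CCDC80 (-3.69 ± 0.16) followed. Other probe sets of TGM2 moved far less, by -0.30 to -0.03 at 6 h. The list was assembled with earlier results of these data known, so its direction is no independent evidence.

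Of 7 tested relatives and ligands of the 10 genes, 2 were lower and 4 higher at 6 h and at 24 h, and 2 lower and 3 higher at 48 h, with medians of 0.29, 0.20 and 0.07. With 7 genes, such counts say little about the list beside the shares over all tested genes given above. The angiomotin AMOT fell at 6, 24 and 48 h (-0.87 ± 0.07, -0.84 and -0.70), whereas AMOTL1 rose by 0.36 ± 0.06, 0.31 and 0.19. Only 1 of the 3 other tested AMOTL1 probe sets was called higher at each time. They lay between 0.04 and 0.30 at 6 h and between -0.03 and 0.27 at 48 h. Of the receptors related to AXL, MERTK rose by 0.52 ± 0.11, 0.48 and 0.39, and TYRO3 rose by 0.29 and 0.30 at 6 and 24 h and differed by 0.07 at 48 h (limma adjusted p = 0.55), where cyclic loess turned the sign. Their ligand GAS6 fell (-1.07 ± 0.06, -0.79 and -0.97), and PROS1, the other ligand, rose by 0.29 ± 0.05, 0.20 and 0.28. The other tested probe set of TYRO3 had no call, with 0.12 at 6 h and 0.03 at 24 h. For PROS1, 1 of 2 other tested probe sets was called higher at 6 h and at 48 h, and 0 at 24 h.

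**Figure D5:**
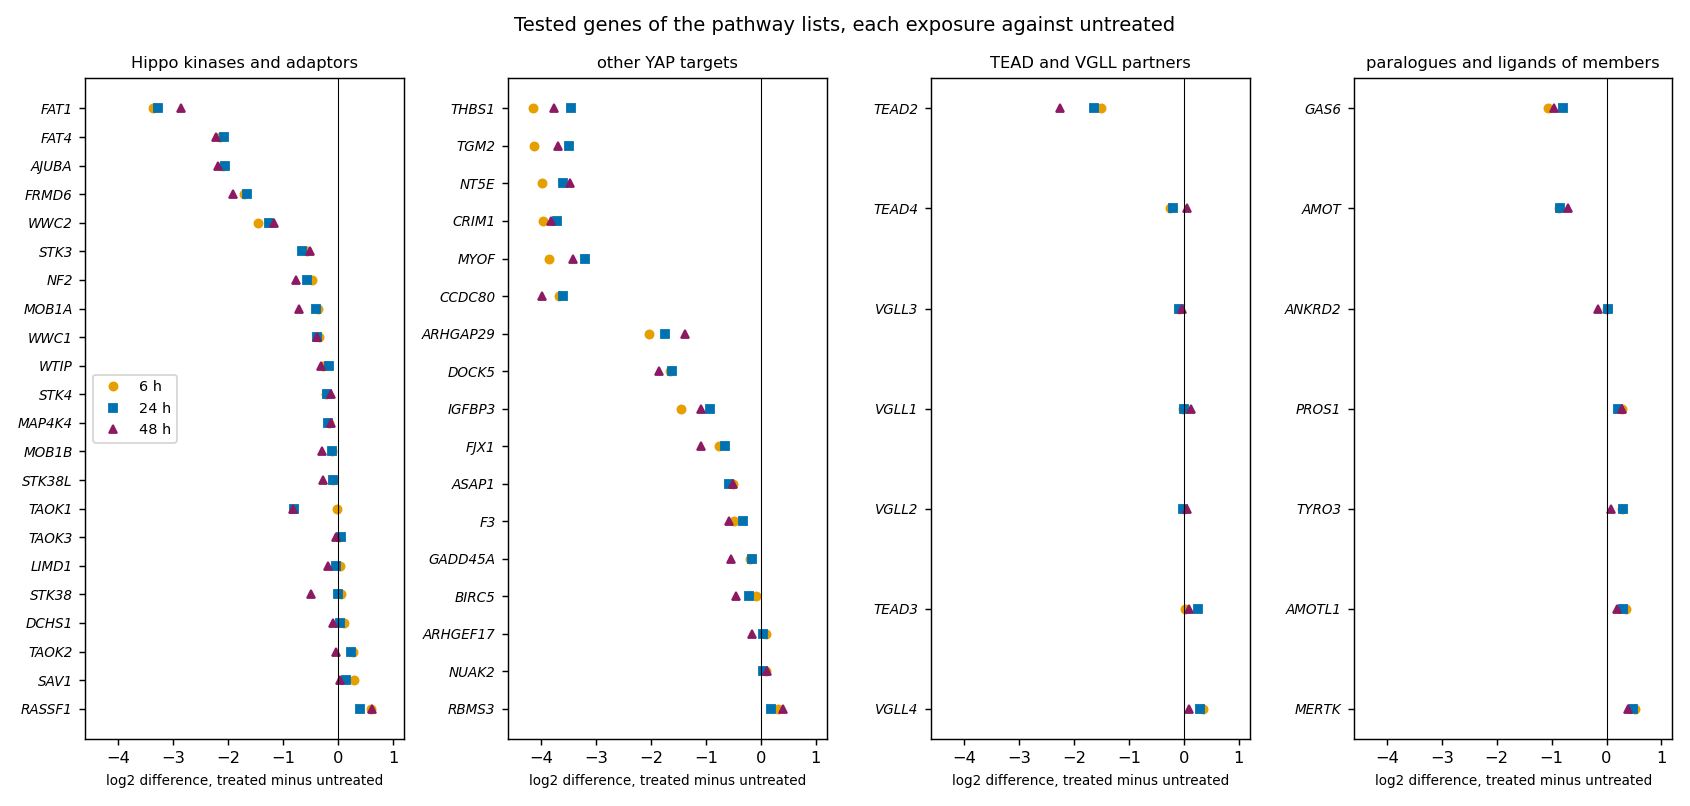
Log2 difference of each exposure against untreated (horizontal axis) for every tested gene of the 4 pathway lists, with circles for 6 h, squares for 24 h and triangles for 48 h. FAT1, FAT4, AJUBA, FRMD6 and WWC2 stand at the low end of the Hippo list, 6 genes lie below -3 at all times among the further targets, and TEAD2 is the low member of its list.

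Markers of cell states and cell types were counted beside all tested genes. Of the latter 16.7%, 16.9% and 21% were lower and 36.6%, 35.3% and 36% higher at 6, 24 and 48 h. Of 12 mesenchymal markers, 10 fell at each time, 0 rose at 6 and 24 h and 1 rose at 48 h, with medians of -1.79, -1.53 and -1.62. The mean of their log2 values lay between 9.43 and 9.52 in untreated arrays, 7.27 and 7.65 at 6 h, 7.57 and 7.61 at 24 h, and 7.47 and 7.59 at 48 h, with no overlap of untreated and treated arrays. Of 10 tested adrenergic markers, 10 rose at 6 h and 9 at 24 and 48 h, with medians of 0.32, 0.37 and 0.50. Their mean lay between 10.57 and 10.65 in untreated arrays, 11 and 11.07 at 6 h, 11.05 and 11.08 at 24 h, and 11.15 and 11.2 at 48 h. The part of either list in the differences of the YAP genes was not tested. The mean of the 4 tested endothelial markers stood between 3.72 and 3.92 in all arrays, near the bottom of the scale. Of 4 tested smooth muscle markers, ACTA2 and TAGLN fell at each time, CNN1 rose by 0.26 at 6 h and DES had no call, and their mean was 5.64 to 6.23 in treated arrays and 7.16 to 7.29 in untreated ones. Of the 2 tested Schwann cell markers, S100B rose by 0.61, 0.57 and 0.39 at 6, 24 and 48 h and SOX10 by 0.27 at 24 h. Their mean lay between 4.71 and 5.09 in treated arrays and between 4.5 and 4.58 in untreated arrays, without overlap. The 1 tested immune marker had no call and reached 4.14. The part of these lists was not tested either. PTPRC, CDH5 and MYH11 were among the markers too dim to be tested. On the array were 4 immune markers, of which 1 was tested, and 4 Schwann cell markers, of which 2 were.

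The genes nearest to CCN2 by Euclidean distance over the 3 differences from untreated, computed from 16 arrays, were PRRX1 (distance 0.75), FOXD1 (distance 1.05) and EFEMP1 (distance 1.6). PRRX1 differed by -5.10, -5.11 and -5.21 at 6, 24 and 48 h. Those nearest to YAP1 were THBS1 (distance 0.091), IGF2BP2 (distance 0.12) and TGM2 (distance 0.13), and IGF2BP2 differed by -4.20, -3.45 and -3.64. All these differences share the same untreated arrays.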

How the data were processed

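The table made for this work from the series' value matrix holds log2 values per probe set for 16 arrays, which the authors deposited. They are RMA values per the submitters' processing notes, whose software is not given in the sources used here. RMA corrects background, equalises distributions between arrays and summarises probes, so a change of total RNA per cell is not visible, and no detection call or scanner signal was used. Of 49386 probe sets, 45259 had a single gene symbol in GEO's platform annotation, 45178 of which matched RefSeq by Entrez identifier, with 0 symbols changed. A gene was taken at its probe set of highest mean over all arrays, and the dimmest 25% of genes were left out, leaving 13680 with a mean of at least 3.65. All 10 members passed. In a second fit over 33955 single-symbol probe sets with a mean of at least 3.52, 27 of the 31 member probe sets were tested.

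A linear model with a mean per group over all 16 arrays (limma 3.58.1 under R 4.3.3, eBayes, two-sided tests) gave 6 contrasts with Benjamini-Hochberg adjustment within each, and the procedure was tested on simulated data. The number of arrays, n = 4 per group, limits the precision. The members, lists and tests were chosen with earlier results of these data known. Named were all members, from each pathway list the 6 tested genes of smallest moderated F p over the contrasts with untreated, 9 pathway genes whatever their values, and the 3 genes nearest to CCN2 and to YAP1. TAOK1, TAOK2 and RASSF1 were added after their values were seen. Replicate numbers did not pair the arrays: deviations of same-numbered arrays correlated between -0.15 and 0.18, and 8 of 24 pairs exceeded 0.1. Alternatives were other probe set summaries, filters, scalings, variance models, thresholds, a replicate block and each array left out. No pair of arrays shared more than 4.55% of values.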

Additional observations from a re-analysis of the deposited data

Results flagged for a closer look

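Differences between exposure times passed the limma test (adjusted p under 0.05) for 3 of the genes at their brightest probe sets. Of all 13680 tested genes, 329 were called for 24 h against 6 h, 3908 for 48 h against 24 h and 4598 for 48 h against 6 h. The YAP1 value was higher at 24 h than at 6 h by 0.7975 on the log2 scale. LATS1 was higher at 48 h than at 24 h by 1.5275 and higher at 48 h than at 6 h by 1.4975. AXL was higher at 48 h than at 6 h by 0.3925. The second probe sets of LATS1 and AXL were not called in these comparisons, and 2 of the 8 YAP1 probe sets were called in that of YAP1.

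A single array stood apart in 7 of 124 groups of 4 arrays, where chance flags about 1 group in 20. The figure given is the gap to the nearest array as a share of the range of the group. In 24 h arrays it was 0.85 for the lowest value of the dimmer CCN1 probe set (5.79 in replicate 3, others 6.13 to 6.19), 0.917 for that of the dimmer AXL probe set (3.65 in replicate 1, others 3.76 to 3.77) and 0.857 for that of the second-brightest TEAD1 probe set (4.22 in replicate 4, others 4.28 to 4.29). In 48 h arrays it was 0.952 for the highest value of the second-brightest YAP1 probe set (5.8 in replicate 2, others 5.59 to 5.6). In untreated arrays it was 0.963 for the highest value of the dimmest AMOTL2 probe set (3.61 in replicate 4, others 3.34 to 3.35), 0.857 for the lowest of the brightest LATS1 probe set (3.94 in replicate 2, others 4.06 to 4.08) and 0.864 for the lowest of the fifth-brightest YAP1 probe set (5.91 in replicate 1, others 6.29 to 6.35).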

How the results depend on the processing

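With any 1 array left out, 9 to 10 of the 10 genes were called in either direction against untreated cells at 6, 24 and 48 h. Of all 13680 genes, 6645 to 7541, 6552 to 7400 and 7414 to 7783 were called in these fits. With the dimmer 50% of genes left out, which removes 6 of the 10 themselves, 4 were called at each time. Of all 9120 genes then tested, 5809, 5771 and 6298 were called. For 24 h against 6 h, where 1 gene was called, 2 were called with the mean of the probe sets, every probe set tested, array medians subtracted, renewed quantile normalization, cyclic loess or a trended robust variance, 4 with array weights (839 of all genes, against 329 without), and 0 with only the 8 arrays compared (418 of all genes) or at an adjusted p of 0.01 (113). Leaving out 1 array gave 0 to 5, with 5 without 6 h replicate 1 and 0 without 6 h replicate 3 or 24 h replicate 2 or 4. For 48 h against 24 h 1 gene, LATS1, was called, beside 3908 of all 13680 genes. Called were 2 with the mean of probe sets, medians subtracted or the trended variance (3886, 4092 and 4160 of all genes), and 4 with only the 8 arrays (4001). With the dimmer 50% left out, LATS1 was itself removed and not tested, and 0 of the remaining genes of the set were called. Without 1 array 1 to 3 were called (3 without 6 h replicate 4, with 3868 of all genes). For 48 h against 6 h 2 were called, beside 4598 of all genes. Array weights gave 4 (5448 of all genes), and an adjusted p of 0.01 or at least 1.5-fold gave 1 (2999 and 356). Without 1 array 2 to 5 were called (5 without 6 h replicate 1, with 4176 of all genes). Apart from the removal of dim genes, the causes of these changes were not tested. The replicate numbers did not pair the arrays, and the replicate block left 9, 9 and 10 genes called at 6, 24 and 48 h, LATS1 at 24 h being lost (adjusted p = 0.068), with 5 of 16 arrays correlating best with their own number. Signs that turned were all of small differences. With cyclic loess TEAD3 was -0.0364 at 6 h, VGLL1 -0.0275 at 24 h, TEAD4 -0.0456 and TYRO3 -0.0451 at 48 h. VGLL1 was 0.0175 at 6 h with medians subtracted and -0.012 at 24 h with renewed quantile normalization. With the mean of probe sets VGLL4 was -0.0442 at 48 h, AXL -0.0262 from 24 to 48 h and TEAD1 -0.0075 from 6 to 48 h. With 1 array left out, differences spanned 0 as follows. At 6 h the range was -0.0517 to 0.1017 for TEAD3 and -0.0575 to 0.0258 for VGLL1. It was -0.0708 to 0.0892 for VGLL1 at 24 h, and -0.11 to 0.0242 for VGLL3 and -0.0075 to 0.1658 for TYRO3 at 48 h. For 24 h against 6 h it was -0.0175 to 0.1058 for ANKRD1, -0.1433 to 0.0033 for AMOTL2 and -0.0817 to 0.0217 for LATS1. For ANKRD1 it was -0.06 to 0.0825 for 48 h against 24 h and -0.0075 to 0.1058 for 48 h against 6 h. LATS1 was called lower at 6 h with cyclic loess (adjusted p = 0.023) or without 6 h replicate 3 (adjusted p = 0.028). Over all tested genes, the share of calls that were higher was 68.7%, 67.6% and 63.1% at 6, 24 and 48 h as deposited and 49.4%, 49.5% and 49% with cyclic loess. The table has no detection calls, so differences of genes near the bottom of the scale, CCN2, ANKRD1 and AMOTL2 in treated cells, are limited by it.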
